A study of Mus musculus with 4 samples.

Results

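The Id family of mouse comprises 4 genes, Id1, Id2, Id3 and Id4, and all 4 were found by Ensembl identifier among the 27734 genes listed in each of 4 single-cell RNA libraries of mouse aorta. The libraries were made with a droplet 5′ kit, which counts unique molecular identifiers (UMIs) per gene and cell. They came from 2 segments, the aortic arch and the descending thoracic aorta, of mice aged 16 to 20 weeks. The conditional Smad4 knockout, drawn as cKO in plots, carried CNC-SMC-Cre, Smad4flox/flox and R26-tdT, a Cre-dependent tdTomato reporter. The control carried CNC-SMC-Cre and R26-tdT as well, without the floxed Smad4. The labels do not spell out CNC, the promoter behind Cre, the floxed exon or how many animals gave each library. With 1 library per genotype and segment there was no replicate, so no test between groups was possible. Intervals below are 95% intervals that cover counting error only.

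Id proteins are helix-loop-helix proteins without a DNA-binding basic region. They pair with E proteins such as Tcf3, Tcf4 and Tcf12 and with some other helix-loop-helix factors and keep them from binding DNA. Bone morphogenetic proteins (BMPs) raise Id transcription through Smad1, Smad5 and Smad9, which act together with Smad4. Id2 is also known for its part in the development of natural killer and other innate lymphoid cells, and Id3 for its part in T cell development.

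The 4 genes lie on different chromosomes of mm10 (GENCODE M21 positions). Id1 (ENSMUSG00000042745) has 2 exons at chr2:152736251-152737410 on the plus strand. Id2 (ENSMUSG00000020644) has 3 exons at chr12:25093799-25097140 on the minus strand. Id3 (ENSMUSG00000007872) has 3 exons at chr4:136143497-136145755 on the plus strand. Id4 (ENSMUSG00000021379) has 3 exons at chr13:48261228-48266026 on the plus strand and is overlapped by the antisense gene A330033J07Rik and the lincRNA Gm49291. The sources used here do not say whether counting used the strand, and reads of Id4 and its antisense partner may not be separable. A330033J07Rik was listed with 3 UMIs in smooth muscle-like cells of the knockout arch, where Id4 had 596, and with 22 in those of the control arch, where Id4 had 7230.

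Promoters were matched for 3 of the 4 members, Id2, Id3 and Id4, in RefSeq sequence of GRCm38.p6, and are shown because the members were lower together in the RFP comparison described further on. Each runs from 250 bases before to 50 bases after the RefSeq start on the gene's own strand. The windows are chr12:25096043-25096342 on the minus strand for Id2, chr4:136143572-136143871 on the plus strand for Id3 and chr13:48260866-48261165 on the plus strand for Id4. Capitals mark GGCGCC, a GC-rich element bound by BMP Smads, and GTCT or its reverse complement, the core element bound by Smad4.
Id2: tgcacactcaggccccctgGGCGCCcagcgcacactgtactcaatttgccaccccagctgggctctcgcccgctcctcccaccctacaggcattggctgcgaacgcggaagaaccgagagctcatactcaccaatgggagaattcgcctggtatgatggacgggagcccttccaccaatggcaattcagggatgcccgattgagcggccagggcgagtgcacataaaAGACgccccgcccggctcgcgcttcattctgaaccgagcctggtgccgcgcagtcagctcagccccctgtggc
Id3: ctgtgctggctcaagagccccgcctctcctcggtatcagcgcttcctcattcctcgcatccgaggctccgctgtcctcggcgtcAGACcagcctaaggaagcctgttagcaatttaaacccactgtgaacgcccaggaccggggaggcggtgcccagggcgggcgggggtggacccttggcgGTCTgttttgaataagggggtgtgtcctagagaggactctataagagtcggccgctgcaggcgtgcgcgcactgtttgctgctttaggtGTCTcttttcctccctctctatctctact
Id4: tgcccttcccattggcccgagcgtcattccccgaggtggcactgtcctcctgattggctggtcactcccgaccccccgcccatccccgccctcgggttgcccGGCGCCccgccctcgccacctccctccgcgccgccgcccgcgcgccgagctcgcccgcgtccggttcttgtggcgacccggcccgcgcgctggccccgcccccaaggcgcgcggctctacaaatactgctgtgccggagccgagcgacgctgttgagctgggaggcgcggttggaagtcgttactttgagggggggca
GGCGCC occurred once each in the Id2 and Id4 windows, first at −231 and −148 from the start, and 11.9% of all 32851 promoters held it. GTCT, read on either strand, occurred in 88% of all promoters, 1 time in Id2 and 3 times in Id3. The Id4 window held no GTCT and the Id3 window no GGCGCC. The CCAAT box, on either strand, occurred 3 times in Id2 and 2 times in Id4, against 37.4% of all promoters with at least 1. The GC content of the windows was 63.3% for Id2, 60% for Id3 and 73.3% for Id4, and the median of all promoters was 52.7%. These matches describe letters in a window and show no binding.

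The deposited matrices held 8634 barcodes for the knockout arch, 9283 for the control arch, 6813 for the knockout descending aorta and 6351 for the control descending aorta, with 49407811 to 98866674 UMIs per library. Filters of 500 genes and under 10% mitochondrial UMIs kept 5206 to 8644 cells per library, with median depths from 5717.5 UMIs in the knockout arch to 10182.5 in the control arch. The knockout arch stood apart in quality, with 2311 barcodes under 500 genes and 1723 at 10% or more mitochondrial UMIs, against 594 and 86 in the control arch and 665 to 943 and 331 to 362 in the descending libraries. Libraries shared 66 to 99 cell barcodes per pair, at most 1.37% of the smaller library. Marker gates, none of which used an Id gene, placed 73.9% of kept cells in the knockout arch and 85.5 to 90.3% in the other libraries into named classes. Every marker of the smooth muscle (8), fibroblast (7), endothelial (7), phagocyte (8) and T cell (6) lists was found in at least 10% of the cells of its class in each library. Gated smooth muscle-like cells numbered 1446, 4232, 1673 and 1406 in the order knockout arch, control arch, knockout descending, control descending, which is kept below wherever 4 values are given together. The knockout arch held 370 mesenchymal cells marked by Spp1 and Tnfrsf11b, against 4, 0 and 0 in the others, and 346 neutrophil-like cells against 6 to 19. Thymocyte-like cells numbered 219 in the control arch and 0 in the knockout arch. A feature named RFP was listed in the knockout arch library and in no other. That library was counted on 28693 features and the others on 32285. Annotation therefore cannot be told apart from genotype in the arch, nor from segment in the knockout. The Y-linked gene Ddx3y had 1373 UMIs in the control arch and 0 in the other libraries. In comparisons with the control arch, sex make-up and group therefore cannot be told apart either.

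Smad4, the targeted gene, stood in smooth muscle-like cells at 63.8 CPM (UMIs of the gene per 1000000 UMIs of all genes in the class) in the knockout arch, 73.2 in the control arch, 90.4 in the knockout descending and 90.9 in the control descending aorta. The log2 ratio of knockout to control was −0.20 (−0.30 to −0.10) for the arch, and for the descending aorta it was −0.01 (−0.11 to 0.09). Because the floxed exon is not given, a 5′ count of Smad4 does not by itself check the deletion. Within the knockout arch library, cells with 16 or more RFP UMIs (RFP-high) had less Smad4 than cells with under 8 (RFP-low), at 36.5 against 74.4 CPM in the smooth muscle-like class, or −1.02 on the log2 scale (−1.28 to −0.78).

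Id1 was highest in endothelial-like cells in every library. It stood there at 290, 303, 242 and 250 CPM, and in none of the libraries did that interval overlap the next class. Smooth muscle-like cells had 81.7, 113, 50.6 and 62.9 CPM in the same order, and fibroblast-like cells 47.7, 60.9, 19.6 and 20.4. T cell-like cells, at 3.62 to 8.29 CPM, were near the low end. When each cell was thinned to 3000 UMIs, an Id1 UMI was found in 44.3 to 51.5% of endothelial-like cells, in 13.1 to 26.5% of smooth muscle-like cells and in 0.707 to 1.45% of T cell-like cells. Mesothelial-like cells had 168 CPM in the control arch, 67.7 in the knockout descending and 94.5 in the control descending aorta. In the knockout arch, neutrophil-like cells had 176 CPM of Id1 from 125 UMIs.

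Id2 had another order, led by natural killer-like and T cell-like cells and, in the knockout arch, also by neutrophil-like cells at 412 CPM. Natural killer-like cells had 451, 537, 731 and 548 CPM, from 23 to 51 cells each. T cell-like cells had 407, 193, 323 and 287 CPM. Thymocyte-like cells of the control arch had 13.5 CPM, well under the T cell-like cells of the same library. B cell-like cells were also low, at 65.1 CPM in the knockout arch, 3.72 in the knockout descending and 13.0 in the control descending aorta. Smooth muscle-like cells had 206, 167, 130 and 137 CPM and endothelial-like cells 144, 157, 64.8 and 70.3 CPM. Smooth muscle-like cells thus had more Id2 than endothelial-like cells except in the control arch, where the intervals overlapped. Mononuclear phagocyte-like cells had 141 CPM in the knockout arch against 31.5 to 52.8 in the other libraries.

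Id3 was abundant across the mesenchymal and endothelial classes. Endothelial-like cells had 1441, 1663, 1088 and 999 CPM. Smooth muscle-like cells had 918, 1105, 722 and 779 CPM and fibroblast-like cells 1020, 1053, 576 and 683. Both were higher in each arch library than in either descending library. Schwann-like cells reached 1074 CPM in the knockout arch and 988 in the control arch. T cell-like cells stayed at 29 to 106 CPM and natural killer-like cells at 7.07 to 45.5, so that Id2 and Id3 stood at opposite ends of their own ranges in natural killer-like cells.

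Id4 was concentrated in mural cells. Pericyte-like cells had 298 CPM (180 to 466) in the control arch, from 28 cells, and were too few in the knockout arch. In the descending aorta they had 134 CPM (88.0 to 194) with the knockout and 102 (61.5 to 159) without. Smooth muscle-like cells of the arch had 37.8 CPM (34.8 to 40.9) with the knockout and 116 (114 to 119) without. Those of the descending aorta had 104 (99.8 to 109) with it and 76.2 (72.2 to 80.3) without. The knockout arch was therefore the low library in this class, and its interval overlapped none of the others. Endothelial-like cells had 3.6 to 5.79 CPM and fibroblast-like cells 18.7 to 22.8. No Id4 UMI was found in the neutrophil-like cells of the knockout arch, which allows up to 4.22 CPM, nor in natural killer-like cells of any library.

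**Figure D1:**
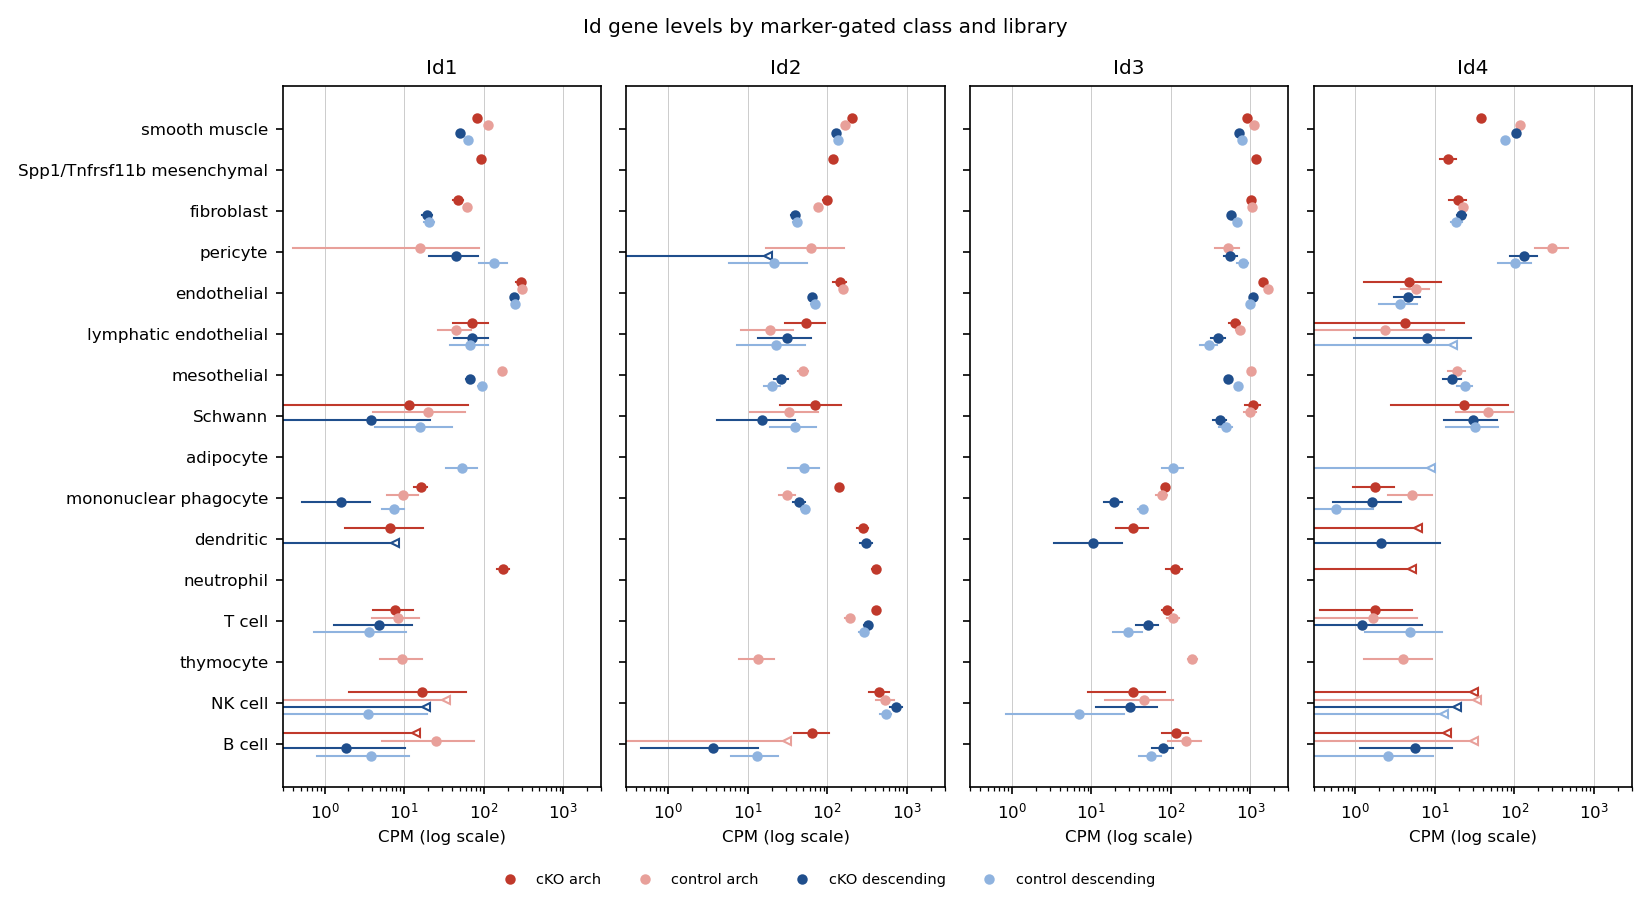
CPM on a log axis of each Id gene in each marker-gated class, with 1 colour per library and bars for the 95% Poisson interval. Endothelial-like cells lead for Id1 in every library, natural killer-like and T cell-like cells are high for Id2, and Id4 in smooth muscle-like cells is lower in the knockout arch (37.8 CPM) than in the other libraries (76.2 to 116 CPM).

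Across 35 class-by-library profiles, Id1 and Id3 were the most alike pair, with a Pearson r of 0.80 and a Spearman rho of 0.84. Id3 and Id4 had r of 0.71, Id1 and Id4 0.46, and Id1 and Id2 0.09. Id2 and Id4 ran opposite, with r of −0.40. These profiles share libraries and depth, and the coefficients are a description. Among 11826 genes compared, those closest to Id1 were Tm4sf1 (r 0.89) and Sema3f (0.89), those closest to Id2 Nr4a2 (0.74) and Skil (0.72), those closest to Id3 Nfib (0.95) and Wwtr1 (0.95), and those closest to Id4 Klhdc8b (0.91) and Ndrg2 (0.91).

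In the knockout arch library, RFP-high cells had lower levels of all 4 Id genes than RFP-low cells of the same class, in each of the 3 mesenchymal classes. RFP-high cells made up 425 of 1446 smooth muscle-like, 140 of 403 fibroblast-like and 107 of 370 Spp1/Tnfrsf11b cells. They were 2 of 132 endothelial-like, 1 of 975 phagocyte-like, 1 of 424 T cell-like and 0 of 346 neutrophil-like cells. No label says what RFP is, and the cells compared share 1 library. A gene was counted as lower or higher when it had 50 or more UMIs in the 2 sides together and the ratio passed 1.5-fold.

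In smooth muscle-like cells Id1 stood at 40.4 CPM (34.8 to 46.6) in RFP-high and 101 (94.8 to 108) in RFP-low cells, a log2 ratio of −1.32 (−1.56 to −1.10). Id2 stood at 107 against 251 CPM, −1.23 (−1.37 to −1.09). Id3 stood at 524 against 1114 CPM, −1.09 (−1.15 to −1.03). Id4 stood at 21.6 against 45.3 CPM, −1.06 (−1.40 to −0.75). The CPM intervals of all 4 members were apart between the sides. Thus 4 of 4 members were lower, where 3.65% of 10501 genes were lower, 5.56% were higher and the median log2 ratio of these genes was 0.03. The share of tested genes with a lower ratio than the member was 0.505% for Id1, 0.590% for Id2, 0.790% for Id3 and 0.838% for Id4.

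**Figure D2:**
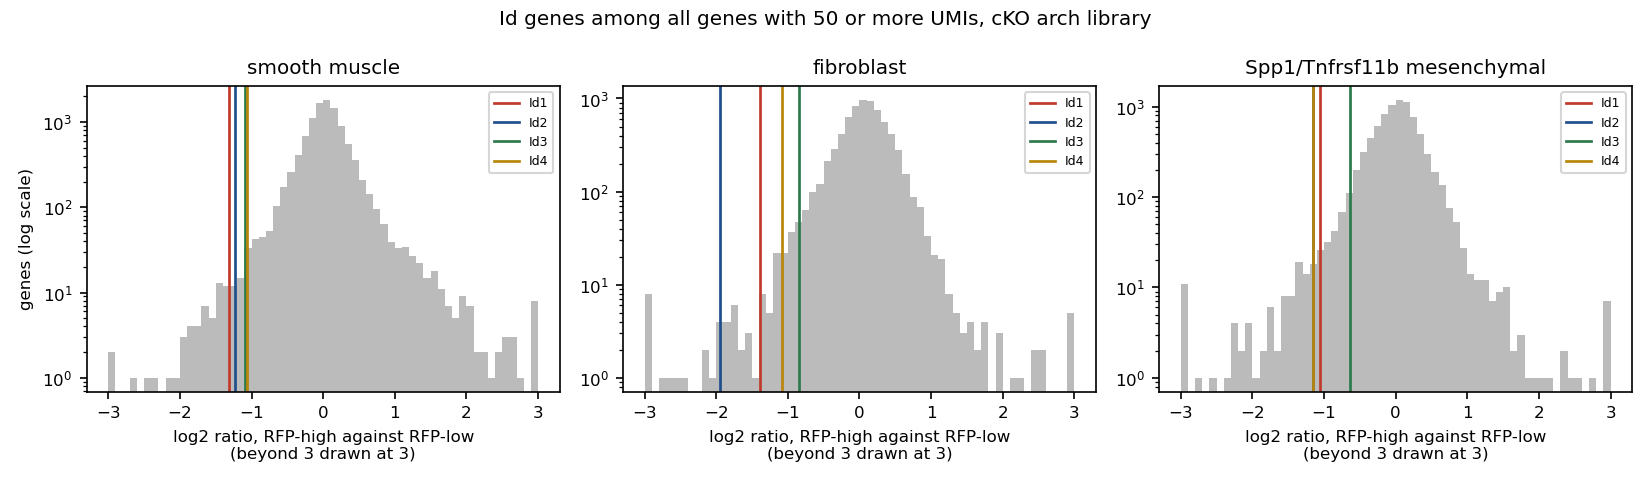
Histogram of the log2 ratio of RFP-high to RFP-low cells for every gene with 50 or more UMIs, by class of the knockout arch library, on a log count axis, with the Id genes marked as lines. In smooth muscle-like cells the 4 lines lie between −1.32 and −1.06, in the left tail.

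By steps of RFP count, from 0, through 1 to 3, 4 to 7, 8 to 15 and 16 to 31, to 32 or more, the smooth muscle-like cells numbered 128, 473, 294, 126, 86 and 339. Id3 was 983, 1077, 1179, 934, 633 and 502 CPM over these steps. Id2 was 198, 252, 259, 225, 138 and 101 CPM. Neither level was lower at 1 to 7 RFP UMIs than at 0, and both were lower from 16 upward. Id1 was 110, 95.1, 106, 87.6, 57.1 and 37.1 CPM. Id4 was 52.3, 47.0, 42.1, 40.7, 37.2 and 18.6 CPM, so that its lowest step was the last. Median depths over the 6 steps were 3735.5, 9423, 12604.5, 13162, 6321.5 and 9933 UMIs, and the part of depth in the step values was not tested. RFP-high and RFP-low cells taken whole had median depths of 9318 and 9865 UMIs.

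**Figure D3:**
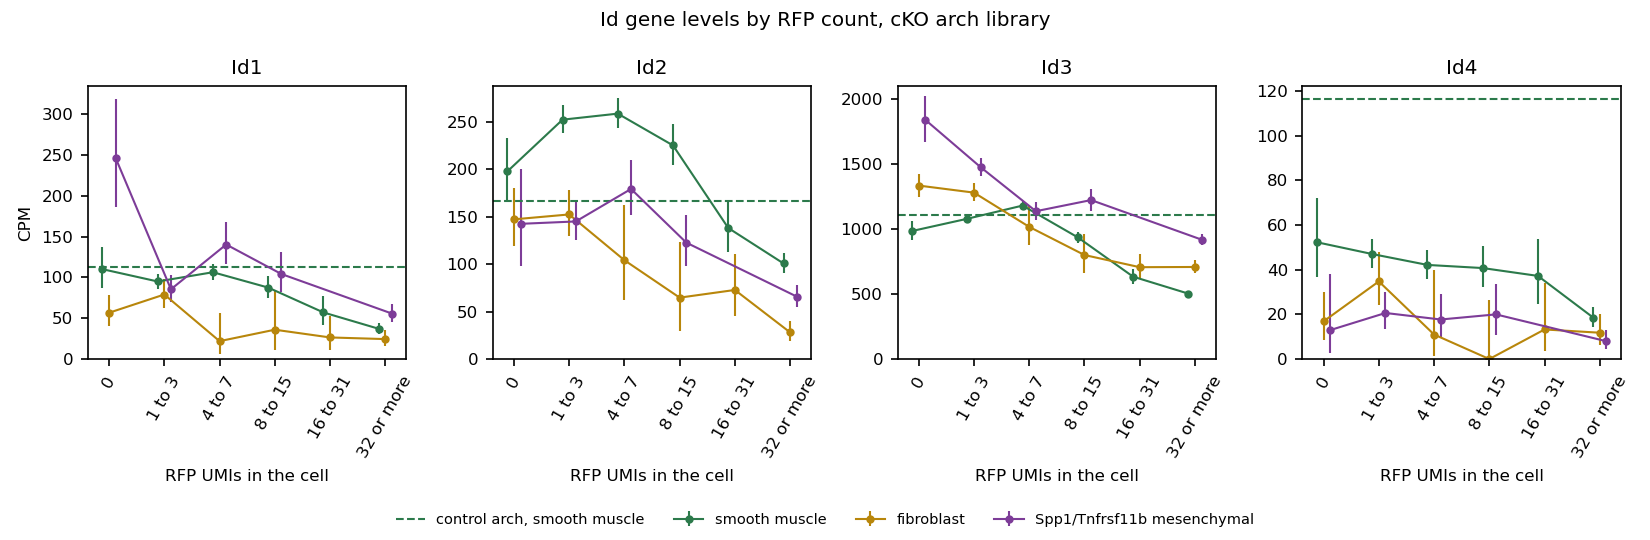
CPM of each Id gene against the RFP UMIs in the cell, in 6 steps, for smooth muscle-like, fibroblast-like and Spp1/Tnfrsf11b cells of the knockout arch, with 95% Poisson intervals. In smooth muscle-like cells Id3 stays between 934 and 1179 CPM up to 15 RFP UMIs and is 633 and 502 CPM in the last 2 steps.

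Cells without any Id UMI were more frequent on the RFP-high side of the smooth muscle-like class. At 3000 UMIs per cell, 39.5% (34.7 to 44.4) of 413 RFP-high cells and 11.4% (9.14 to 13.9) of 712 RFP-low cells had none, and before thinning the shares were 16.9% and 9.16%. An Id3 UMI was found at 3000 UMIs in 52.5% of RFP-high and 82.2% of RFP-low cells, and an Id4 UMI in 4.84% and 11.7%. The share with an Id4 UMI in phagocyte-like cells of that library, which had a level of 1.77 CPM, was 0.491%. In fibroblast-like cells 28.8% of RFP-high and 14.0% of RFP-low cells had no Id UMI at 3000, and before thinning the shares were 16.4% and 14.7%. In Spp1/Tnfrsf11b cells the shares were 16.7% and 10.9% with overlapping intervals, and before thinning they had the other order, 5.61% and 15.3%.

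Fibroblast-like cells had Id1 at 24.9 CPM in RFP-high and 65.8 in RFP-low cells, a log2 ratio of −1.39. Id2 stood at 37.7 against 146 CPM, −1.94 (−2.41 to −1.52), and was the member furthest apart in this class. Id3 stood at 707 against 1271 CPM, −0.85. Id4, from 66 UMIs in all, stood at 12.1 against 26.2 CPM, −1.09 (−2.00 to −0.29). Again 4 of 4 members were lower, where 4.83% of 7185 genes were and 6.26% were higher. Id3 was 1332, 1278, 1015, 799, 705 and 707 CPM over the 6 RFP steps in this class, so that the steps below 4 RFP UMIs were the highest. Median depths were 7996 UMIs in RFP-high and 6296.5 in RFP-low cells.

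Spp1/Tnfrsf11b cells had Id1 at 58.1 CPM in RFP-high and 121 in RFP-low cells, −1.05. Id2 stood at 70.6 against 157 CPM, −1.15. Id3 stood at 891 against 1389 CPM, −0.64, and Id4, from 63 UMIs in all, at 8.36 against 18.8 CPM, −1.15. The 4 members were lower here too, against 4.91% of 8310 genes. The RFP-high cells were the deeper ones in this class, at a median of 14986 UMIs against 7406. Thinned to 3000 UMIs, Id1 had a log2 ratio of −0.34, Id2 of −0.74, Id3 of −0.46 and Id4 of −0.47, so that Id2 alone still passed 1.5-fold. Id2 had −0.49 without the deepest 5% of cells and −0.55 with each cell weighing the same, where Id3 had −0.26. The 51 cells of this class without RFP had Id1 at 246 CPM.

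Other BMP target genes were also lower in part in smooth muscle-like cells. Of 9 tested, 5 were lower in RFP-high cells and 0 higher, where 3.65% of all genes were lower, and their median log2 ratio was −0.97. Smad6, an inhibitory Smad, stood at 29.8 against 62.1 CPM, −1.06, and Atoh8, a helix-loop-helix factor, at 22.5 against 50.7 CPM, −1.17. Smad9 had a log2 ratio of −1.61. In fibroblast-like cells 3 of 5 were lower, against 4.83% of all genes, and 1, Bambi, was higher at 0.77, against 6.26%. In Spp1/Tnfrsf11b cells 3 of 7 were lower, against 4.91% of all genes.

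Of the 3 E proteins that Id proteins bind, 0 passed 1.5-fold in each of the 3 classes. Over all genes 9.21% passed in either direction in smooth muscle-like, 11.1% in fibroblast-like and 9.75% in Spp1/Tnfrsf11b cells, so that a count of 0 among 3 genes is near the background. In smooth muscle-like cells Tcf4 stood at 143 CPM in RFP-high and 118 in RFP-low cells, a log2 ratio of 0.28, Tcf12 at 0.34 and Tcf3 at 0.01. Of 11 other helix-loop-helix genes, 1 was higher and 3 were lower, where 5.56% and 3.65% of all genes were. Tcf15 was the higher one, at 11 against 1.74 CPM, a log2 ratio of 2.63. The lower ones were Atoh8, Hey1 at −0.97 and Scx at −0.60. Atoh8 and Hey1 are also in the list of other BMP targets, so these counts overlap.

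Upstream of the Id genes, 1 of 2 BMP ligands tested in smooth muscle-like cells was higher, where 5.56% of all genes were. Bmp2 stood at 46.7 CPM in RFP-high against 26.6 in RFP-low cells, 0.81, and Bmp4 had a log2 ratio of −0.08. Of 10 receptors and co-receptors, 1 was lower, Bmpr1b at −0.80, where 3.65% of all genes were lower. Of 4 BMP Smads, Smad4 and Smad9 were lower, while Smad1 had −0.05 and Smad5 0.03. Smad9 is also counted among the other BMP targets. Of 6 secreted BMP binders, Chrd was higher at 0.67 and Fst lower at −0.72, where 5.56% and 3.65% of all genes were.

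Other genes also differed between RFP-high and RFP-low cells. Immediate early genes were higher for 6 of 12 in smooth muscle-like cells, against 5.56% of all genes, among them Nr4a1 at 1.73 and Egr1 at 0.97. In fibroblast-like cells 1 of 11 was lower and none higher, where 4.83% of all genes were lower and 6.26% higher. In Spp1/Tnfrsf11b cells 1 of 12 was lower and none higher, where 4.91% of all genes were lower and 4.84% higher. Marker lists of other cells moved as well. In smooth muscle-like cells the fibroblast list summed to 469 CPM in RFP-high and 217 in RFP-low cells. The neutrophil list summed to 21.2 and 61.6 CPM, with 1 of 6 markers at 0 in RFP-high cells, against 64560 CPM in neutrophil-like cells. The phagocyte list summed to 82.7 and 117 CPM, against 18020 CPM in phagocyte-like cells. In fibroblast-like cells the phagocyte list summed to 61.9 and 161 CPM and the neutrophil list to 113 and 16.0 CPM, and in Spp1/Tnfrsf11b cells the phagocyte list summed to 49.3 and 126 CPM. Their part in the Id ratios was not tested.

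RFP-low smooth muscle-like cells can be set beside those of the control arch, though the libraries differ in depth and annotation. Id1 stood at 101 CPM in RFP-low cells and 113 in the control arch, and Id3 at 1114 and 1105. Id2 stood at 251 and 167 CPM. Id4 stood at 45.3 and 116 CPM. Id1 and Id3 were thus close in the 2 sets, Id2 was higher in the RFP-low cells and Id4 was higher in the control arch.

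Between genotypes in the arch, 1 of the 4 members passed 1.5-fold in smooth muscle-like cells, where 25.4% of all genes passed in either direction. A count of 1 among 4 genes is near that background. Id4, at 37.8 CPM in the knockout and 116 in the control, had a log2 ratio of −1.62 (−1.75 to −1.50), and 3.64% of tested genes had a lower one. Id1 had −0.47 (−0.56 to −0.39), Id2 0.30 (0.24 to 0.36) and Id3 −0.27 (−0.29 to −0.24). Id1 passed 1.5-fold when cells were thinned to 3000 UMIs, at −0.78, and Id3 stood at −0.057 without cells that had Msx2, Dlx5 or Dlx6. Lower calls made up 16.4% and higher calls 9% of 12966 genes, and the median log2 ratio of these genes was −0.10. Of 10 other BMP targets 5 were lower, among them Msx2 at −1.71, and of 3 E proteins 0 passed. Of 3 BMP ligands, Bmp2 was higher at 1.22 and Bmp4 at 0.93, and Bmp6 was lower at −2.56. Of 10 receptors and co-receptors 4 were lower and 0 higher, among them Bmpr1b at −1.96 and Rgmb at −1.17. The Spp1/Tnfrsf11b list summed to 1071 CPM in smooth muscle-like cells of the knockout arch and to 92.3 to 98.8 in the other libraries. The neutrophil list summed to 45.0 CPM there and to 1.15 to 2.17 in the others. The part of these lists, and of the quality of the knockout arch library, in the ratios was not tested.

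In the descending aorta none of the 4 members passed 1.5-fold between genotypes in smooth muscle-like cells, where 5.36% of genes did in either direction. Id1, at 50.6 CPM in the knockout and 62.9 in the control, had −0.31, Id2 −0.07 and Id3 −0.11. Id4, at 104 CPM in the knockout and 76.2 in the control, had 0.45 (0.35 to 0.55), and 96.1% of tested genes had a lower ratio. The sign for Id4 was thus opposite in the 2 segments. Of 8 other BMP targets 0 passed in the descending aorta.

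In the arch, among members with 50 or more UMIs, Id2 was furthest apart between genotypes in phagocyte-like and T cell-like cells. Phagocyte-like cells had Id2 at 141 CPM in the knockout and 31.5 in the control, a log2 ratio of 2.15 (1.81 to 2.54), where 16.4% of genes were higher. The class differed in make-up, since 121 of 975 cells in the knockout and 224 of 294 in the control had at least 2 of Folr2, Lyve1 and Cd163. Among cells with none of them Id2 was 150 CPM (140 to 160) in 771 cells of the knockout and 91.1 (55.7 to 141) in 33 of the control, with overlapping intervals. Cells with at least 2 of them had Id2 at 69.0 CPM (53.5 to 87.6) in the knockout and 15.7 (10.2 to 23.0) in the control. Those intervals were apart. Id1 in the whole class was 16.2 against 9.71 CPM, 0.71 (0.06 to 1.49), from 21 UMIs in the control. It was higher in the knockout on neither side of this gate. With at least 2 of the genes Id1 was 4.12 CPM (1.12 to 10.5) against 5.43 (2.48 to 10.3). With none it was 18.3 CPM (14.9 to 22.1) against 54.7 (28.3 to 95.5), the latter from 12 UMIs. T cell-like cells had Id2 at 407 against 193 CPM, 1.07 (0.86 to 1.29), where 14% of genes were higher. In the same cells 9 of 11 immediate early genes were higher and 1 lower. Their median log2 ratio was 0.84 against −0.18 over all genes, and their part in the Id2 ratio was not tested. The control arch alone also held thymocyte-like cells, 219 in number with Id2 at 13.5 CPM. Whether such cells entered its T cell-like class was not tested. Endothelial-like cells had ratios from −0.21 for Id3 to −0.06 for Id1 among the members with 50 or more UMIs, none past 1.5-fold, where 26.7% of genes passed in either direction. Split by Gpihbp1, a gate described further on, Id1 differed in opposite directions. With Gpihbp1 it was 330 CPM (273 to 394) in the knockout and 662 (617 to 710) in the control. Without Gpihbp1 it was 261 CPM (217 to 311) in the knockout and 164 (151 to 179) in the control. Fibroblast-like cells had Id1 at −0.35, Id2 at 0.37, Id3 at −0.05 and Id4 at −0.23 (−0.64 to 0.15), none past 1.5-fold, where 26% of genes passed. Id4 passed when cells were thinned, at −0.68, and Id1 had 0.056 with the looser gate. In the descending aorta, Id3 in phagocyte-like cells was 19.1 CPM in the knockout against 44.4 in the control, −1.21, where 7.64% of genes were lower. Cells with at least 2 of Folr2, Lyve1 and Cd163, 292 of 437 and 272 of 503, had Id3 at 16.6 against 16.1 CPM. Those intervals overlapped. Cells with none had 16.0 CPM (7.99 to 28.6), from 11 UMIs in 80 cells, against 77.4 (65.8 to 90.4) in 154 cells. The part of make-up in the ratio was not tested.

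**Figure D4:**
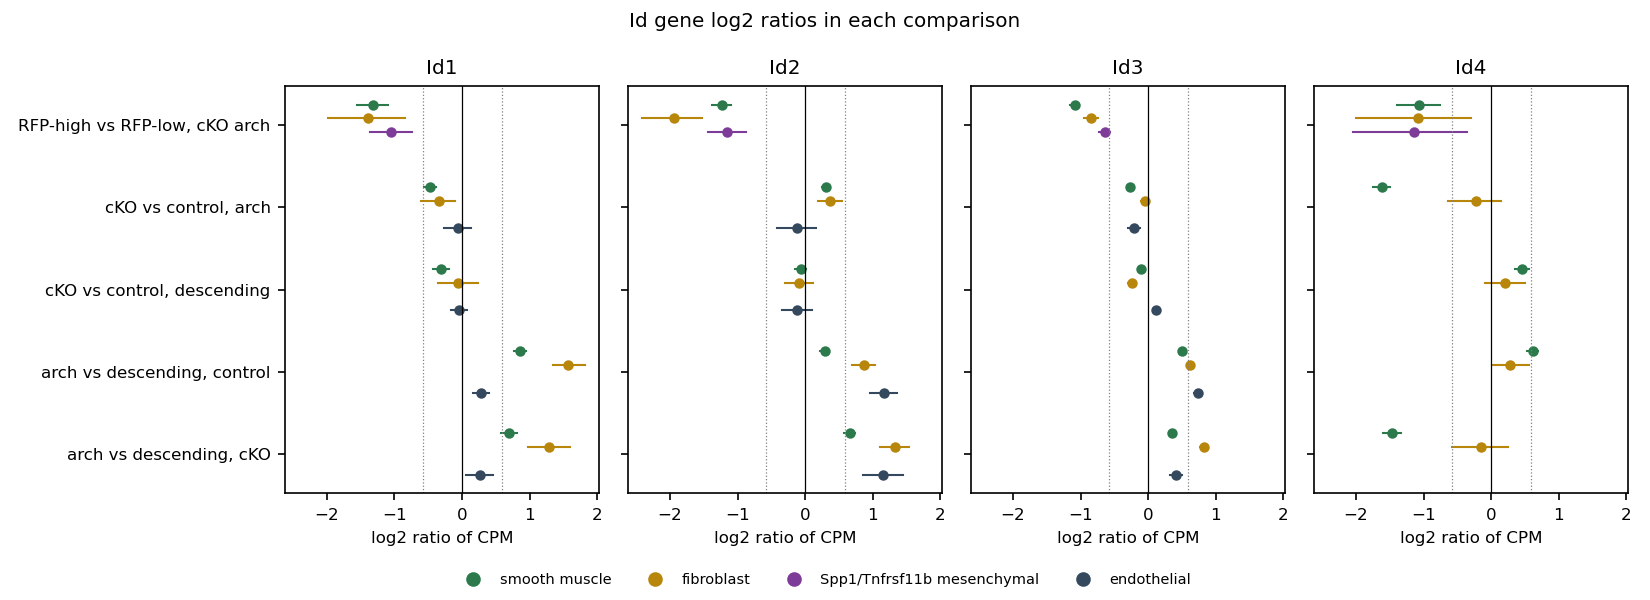
Log2 ratios of CPM with 95% intervals for each Id gene by class in the knockout against control, arch against descending and RFP-high against RFP-low comparisons. The 4 members lie below 0 in the RFP comparison in each class drawn, and Id4 in smooth muscle-like cells lies at −1.62 for the arch genotypes and at 0.45 for the descending ones.

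Between segments, the control arch had higher Id levels than the control descending aorta in smooth muscle-like cells. Id1, at 113 against 62.9 CPM, had a log2 ratio of 0.85 (0.76 to 0.94), and Id4, at 116 against 76.2 CPM, had 0.61 (0.53 to 0.70). Both passed 1.5-fold, where 6.77% of genes were higher. Id3, at 1105 against 779 CPM, had 0.50 and Id2 0.29. Without cells that had Msx2, Dlx5 or Dlx6, Id4 had 0.51 and no longer passed, and Id3 had 0.22. Of 10 other BMP targets 7 were higher, among them Smad6 at 66.2 against 26.7 CPM, 1.31, and Msx2 at 25.2 against 0.0559 CPM. Both control libraries share the genotype, but Y-linked transcripts were counted in the arch library alone.

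In the knockout the arch was again higher than the descending aorta for Id1 at 0.69 (0.57 to 0.81) and Id2 at 0.66 (0.58 to 0.73), where 7.53% of genes were higher. Thinned to 3000 UMIs, they had 0.27 and 0.43 and no longer passed. Id3 had 0.35. Id4, at 37.8 against 104 CPM, was lower in the arch, −1.46 (−1.60 to −1.33), where 16.9% of genes were lower. The segment order for Id4 was thus opposite in the 2 genotypes. The knockout arch library enters the knockout segment contrast and the arch genotype contrast. It differed from the knockout descending library in feature list and quality, and their part in these ratios was not tested.

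Fibroblast-like cells had the same order of segments for Id1, Id2 and Id3. In the controls Id1 was 60.9 CPM for the arch and 20.4 for the descending aorta, a log2 ratio of 1.57, and Id2 was 75.8 and 41.5 CPM, 0.87. In the knockout Id1 had 1.28 and Id3, at 1020 against 576 CPM, had 0.83. Higher calls made up 8.12% of genes in the controls and 9.55% in the knockout. Endothelial-like cells had Id2 at 157 against 70.3 CPM in the controls and 144 against 64.8 in the knockout, 1.16 in both, where 10.8% and 8.97% of genes were higher. Cells with Gpihbp1, which had less Id2, were 220 of 602 in the control arch and 491 of 706 in the control descending aorta. In the controls Id2 was 69.3 against 41.5 CPM with Gpihbp1 and 191 against 141 without. In the knockout it was 90.7 against 38.1 CPM with Gpihbp1 and 184 against 97.0 without. The part of this make-up was not tested. Id1 in endothelial-like cells had 0.28 and 0.27, below 1.5-fold, and in the controls 0.64 with each cell weighing the same. In the controls the sides of the gate had opposite directions. Id1 was 662 CPM in the arch against 257 with Gpihbp1, and 164 against 232 without. In the knockout it was 330 against 302 CPM with Gpihbp1, with overlapping intervals, and 261 against 169 without.

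Within classes the Id genes varied with further marker genes, which were chosen after these values were seen and are a description. Smooth muscle-like cells with a UMI of at least 2 of Msx2, Dlx5 and Dlx6 numbered 535 in the control arch, against 3340 with none. Id3 was 2110 CPM in the former and 894 in the latter, and Id1 was 169 and 102 CPM. In the knockout arch 59 such cells had Id3 at 1624 CPM against 859 in 1323 cells with none. Smooth muscle-like cells with Olfr78 or Olfr558 had Id1 at 206 CPM against 51.3 without in the control descending aorta, and at 132 against 41.7 in the knockout descending aorta. In the control arch the same gate gave 131 against 113 CPM.

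Endothelial-like cells with Gpihbp1, a lipoprotein lipase anchor of capillary endothelium, had less Id2 than those without in every library. Id2 was 90.7 against 184 CPM in the knockout arch, 69.3 against 191 in the control arch, 38.1 against 97 in the knockout descending and 41.5 against 141 in the control descending aorta. Id1 was higher with Gpihbp1 in the control arch, at 662 against 164 CPM, and in the knockout descending aorta, at 302 against 169. In the knockout arch, at 330 against 261 CPM, and the control descending aorta, at 257 against 232, the intervals overlapped. Phagocyte-like cells with at least 2 of Folr2, Lyve1 and Cd163, genes of resident macrophages, had Id2 at 69 CPM against 150 with none in the knockout arch, and at 15.7 against 91.1 in the control arch. In the descending aorta they had 10.9 against 132 CPM in the knockout and 7.84 against 96.4 in the control.

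**Figure D5:**
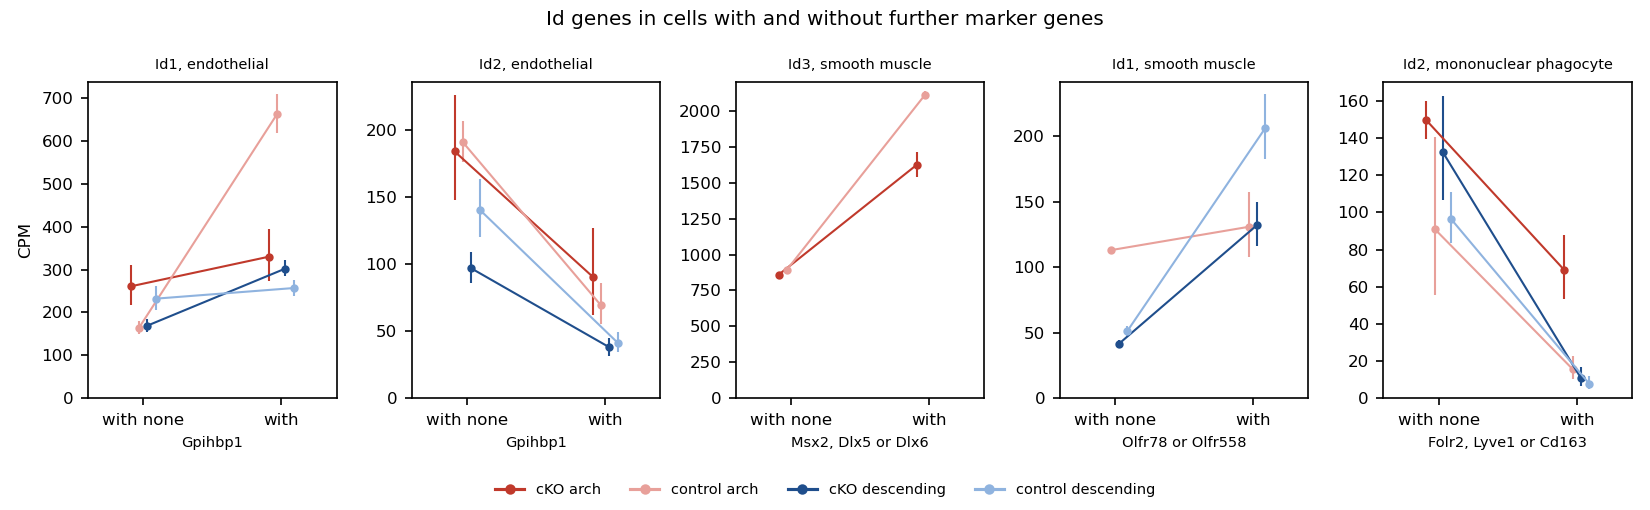
CPM with 95% Poisson intervals of selected Id genes in cells without and with further marker genes, by library, on axes that start at 0. Id3 is 894 and 2110 CPM in cells with none and with at least 2 of Msx2, Dlx5 and Dlx6 among control arch smooth muscle-like cells, and Id2 is lower in phagocyte-like cells with at least 2 of Folr2, Lyve1 and Cd163 than in those with none in each library.

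Id UMIs were unevenly spread over cells. In smooth muscle-like cells the tenth of cells with the most Id3 UMIs held 41.0% of them in the knockout arch, 33.2% in the control arch, 37.7% in the knockout descending and 33.7% in the control descending aorta. For Id1 the shares were 57.6%, 42%, 61.3% and 60.8%. Depth was highest in the control arch, and its part in these shares was not tested.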

How the data were processed

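Cells of mouse aorta were counted in 4 libraries. The deposited matrices hold UMI counts per gene and barcode that the authors made with Cell Ranger, version 6.1.1 per the submitters' processing notes and 6.1.2 per the file headers, on mm10. No source used here gives the annotation release. Cells with at least 500 genes and under 10% mitochondrial UMIs were kept. Classes came from fixed marker lists for 18 classes: a cell needed a scaled mean marker score of 0.4, at least 3 markers with a UMI, and a best other score at most 0.6 times its own (0.75 within a compartment). That threshold was set after marker scores were seen, and up to 59 cells of a class lay within 0.05 above it. Cells high for 2 lineages stayed without a class, and no doublet caller was run. Counts were summed over the 27734 shared genes into CPM with exact Poisson intervals. Log2 ratios used 0.5 UMI added to each side and an exact conditional interval, and shares have Clopper-Pearson intervals. A class needed 50 cells for a ratio and 20 for a level. Shares of cells were thinned to 3000 UMIs. Level limits for a count of 0 use 3 UMIs. Levels are compared within a gene, not between genes. At most 4 genes are named from each list, those furthest from 0 among the genes with 50 UMIs, and genes alike to a member are those with the highest Pearson r of log2(CPM + 1) over profiles. Members and lists were chosen with earlier results of these data known. Methods were tested on simulated data. Python 3.11.15, numpy 2.4.6, scipy 1.17.1, pandas 2.3.3 and matplotlib 3.10.9 were used.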

Additional observations from a re-analysis of the deposited data

Results flagged for a closer look

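With 1 library per group, none of the following differences was tested. Id4 in smooth muscle-like cells had opposite signs for knockout against control in the 2 segments, and the arch log2 ratio minus the descending one was −2.08. The same 4 libraries read the other way gave opposite signs for arch against descending in the 2 genotypes, with a control minus knockout difference of 2.08, so these are 1 pattern and not 2. Id3 in endothelial-like cells had genotype ratios of −0.21 (arch) and 0.12 (descending), a difference of −0.33. Id2 in phagocyte-like cells had −0.74 for arch against descending in the controls and 1.66 in the knockout, a difference of −2.4. The share of cells with at least 2 of Folr2, Lyve1 and Cd163, which had less Id2, also differed between these libraries, and its part was not tested. Id2 in T cell-like cells had −0.57 in the controls and 0.33 in the knockout, a difference of −0.9. Immediate early genes in the same cells had median ratios of 0.59 and 1.79. Thymocyte-like cells were gated in the control arch alone, and their part was not tested.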

How the results depend on the processing

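No paired analysis was possible because each group has 1 library, and for the same reason no library could be left out. Of the smooth muscle-like log2 ratios, 138 recomputed values stayed within the counting interval of the main value and 54 moved. None past 1.5-fold changed sign, while Id2 between genotypes in the descending aorta did so when thinned. Among the remaining recomputed values 348 stayed and 86 moved. These were log2 ratios of other classes, levels in smooth muscle-like cells and shares of all genes past 1.5-fold. A share was held to stay when it lay within 1.5-fold of the main share. The RFP ratios of the 4 members stayed past 1.5-fold lower in every setting run in smooth muscle-like cells. Thinned to 3000 UMIs, Id1 had an arch genotype ratio of −0.78, Id2 0.16, Id3 −0.34 and Id4 −1.75, the descending ratio of Id2 was 0.10, the control segment ratios were 0.63 for Id1, 0.37 for Id2 and 0.74 for Id4, the knockout ones 0.27 for Id1, 0.43 for Id2 and 0.29 for Id3, and the RFP ones −1.49 for Id2 and −1.27 for Id3. With each cell weighing the same, Id1 had an arch genotype ratio of −0.62, Id2 0.22 and Id3 −0.37, the descending ratio of Id3 −0.15, the control segment ratio of Id4 0.50, the knockout ones 0.57 for Id1 and 0.30 for Id3, and the RFP ratio of Id1 −1.61. Id1 between genotypes in the arch thus passed 1.5-fold in these settings, and Id1 between segments in the knockout no longer did. With median-of-ratios scaling, Id1 had an arch genotype ratio of −0.37, Id2 0.41 and Id3 −0.16, the control segment ratios 0.38 for Id2, 0.59 for Id3 and 0.70 for Id4, and the knockout ones 0.83 for Id1, 0.80 for Id2, 0.49 for Id3 and −1.32 for Id4. Without cells that had a UMI of Msx2, Dlx5 or Dlx6, a choice made after seeing the data, Id1 had an arch genotype ratio of −0.36, Id2 0.39 and Id3 −0.057, the control segment ratios 0.70 for Id1, 0.18 for Id2, 0.22 for Id3 and 0.51 for Id4, and the knockout ratio of Id3 0.26. With 8 or more RFP UMIs against under 8, Id1 had an RFP ratio of −0.90, Id2 −0.82, Id3 −0.79 and −0.73 for Id4. Against under 4, Id3 had −1.02, and with RFP taken per 10000 UMIs Id2 had −1.43 and Id3 −1.20. Keeping cells with 1000 genes and under 5% mitochondrial UMIs gave −0.21 for Id3 between genotypes in the arch, and 0.85 for Id1 and 0.39 for Id3 between segments in the knockout. Leaving out the deepest 5% of cells gave −0.14 for Id3 between genotypes in the descending aorta, 0.48 for Id3 between control segments and −1.23 for Id3 in the RFP comparison. The looser gate gave 0.24 for Id2 between genotypes in the arch and −1.0 for Id3 in the RFP comparison. In Spp1/Tnfrsf11b cells each member lost its RFP call under at least 1 setting. The cause of these shifts was not tested. With a filter of 1 UMI in place of 50, 31.9% of genes passed 1.5-fold in the RFP comparison and 25.4% in the descending genotype comparison.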

Other observations

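Mesothelial-like cells, gated in 3 libraries, had Id3 at 1028 CPM in the control arch, 519 in the knockout descending and 702 in the control descending aorta. Between genotypes in the descending aorta their log2 ratios were −0.48 for Id1, 0.36 for Id2 and −0.53 for Id4. Between control segments Id1 had a ratio of 0.83 and Id2 of 1.27. Lymphatic endothelial-like cells, from 24 to 33 cells per library, had Id1 at 44.8 to 71.7 CPM, under the endothelial-like cells of the same libraries. Thymocyte-like cells of the control arch had Id3 at 185 CPM. Adipocyte-like cells of the control descending aorta, 47 cells, had Id1 at 53.7 CPM and no Id4 UMI, which allows up to 7.32 CPM. A smooth muscle-like cell of the knockout descending aorta held 40 Id4 UMIs.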
